A study of Mus musculus with 36 samples.

Results

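The 8 genes described here encode secreted ligands that start or amplify Wnt signalling in the liver: the Wnt proteins Wnt5b, Wnt5a, Wnt4, Wnt11, Wnt2 and Wnt9b and the R-spondins Rspo3 and Rspo1. They were taken by symbol from the 24421 genes counted in RNA of whole livers of 36 male C57BL/6J mice. Wnt5b was chosen by its own measured values, as a gene among those that rose most clearly with treatment under the standard diet, so that contrast is given as a description with no test. The others were listed as the Wnt and R-spondin ligands known in liver. All 36 mice had eaten the CDAHFD, a choline-deficient, amino acid-defined high-fat diet that causes steatohepatitis, for 12 weeks. In the first experiment a high-fat diet, here HFD, followed over 2 weeks, with weekly injections of Fc at 4.3 mg/kg (10 mice) or of Fc(mML1)B3 at 5 mg/kg (10 mice). In the standard diet experiment they ate a standard diet for 10 days and received Fc (9 mice) or Fc(mML1)B3 (7 mice) at the same doses on days 1, 4 and 7. Fc(mML1)B3 is the constant fragment of a human antibody that carries a grafted peptide which binds and activates mouse Met, the receptor of hepatocyte growth factor. Fc is the same fragment without the peptide and served as the control in both experiments. Diet, injection scheme and experiment changed together, so their parts in a difference between the diets cannot be told apart.

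Wnt proteins are lipid-modified in the secreting cell by Porcn and carried out by Wls. They bind Frizzled receptors, and with the co-receptors Lrp5 or Lrp6 they stabilise β-catenin, while Wnt5a, Wnt5b and Wnt11 are best known for signalling without β-catenin through Ror and Ryk receptors, planar cell polarity proteins and calcium. R-spondins bind Lgr4 and Lgr5 and remove the ubiquitin ligases Znrf3 and Rnf43, which otherwise clear Frizzled receptors from the membrane. In the liver, Wnt2, Wnt9b and Rspo3 from endothelial and stellate cells around the central vein keep hepatocytes there in their pericentral state, which is marked by genes such as Glul and Cyp2e1.

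Reads assigned to genes numbered 14949035 to 28466853 per library, with a median of 23558194.5, and each library came from a different mouse. Levels are given as CPM, read counts scaled to library size after TMM normalisation. Hepatocyte markers (Alb, Apoa1, Ttr, Hnf4a and Cyp3a11) were present in every library and summed to 69390 to 139900 CPM. In whole liver, fewer cells of a type and less RNA per cell cannot be told apart.

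Wnt5b lies on the minus strand at chr6:119432531-119544347 (mm10) and Wnt4 on the plus strand at chr4:137277635-137299501. No exon of any of the 8 genes overlaps an exon of another gene in the annotation of the counts. The 250 bases before the start of these genes, from RefSeq (GRCm38.p6) and written 5′ to 3′ on the strand of the gene, are shown because these were the members that passed the test under the HFD, in opposite directions. Capitals mark a match to the AP-1 motif TGANTCA.
Wnt5b, chr6:119544348-119544597: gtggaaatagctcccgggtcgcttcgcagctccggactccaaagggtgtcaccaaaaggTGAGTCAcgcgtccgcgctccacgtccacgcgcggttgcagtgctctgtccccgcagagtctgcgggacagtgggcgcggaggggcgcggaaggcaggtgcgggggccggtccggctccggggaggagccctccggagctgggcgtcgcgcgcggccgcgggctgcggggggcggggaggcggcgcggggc
Wnt4, chr4:137277385-137277634: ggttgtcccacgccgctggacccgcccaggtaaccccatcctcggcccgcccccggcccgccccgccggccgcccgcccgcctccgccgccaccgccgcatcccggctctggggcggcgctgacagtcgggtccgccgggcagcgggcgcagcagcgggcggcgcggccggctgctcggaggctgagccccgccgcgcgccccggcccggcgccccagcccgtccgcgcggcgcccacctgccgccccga
Both stretches were rich in G and C, at 75.2% in Wnt5b and 85.2% in Wnt4. The AP-1 letters began at position -191 from the start of Wnt5b, and 6.7% of the 32851 mouse windows of this length held a match on either strand. Another 4 motifs were searched on both strands, namely CTTTGA (TCF/LEF, in 13.8% of all windows), CACGTG (E-box, 6.0%), TGACG (CRE core, 17.8%) and GGAATG (TEAD, 12.6%). None of these letters occurred in the windows of Wnt5b, Wnt4, Wnt2, Wnt9b or Rspo1, while the Wnt11 window held 1 match to CTTTGA and 2 to TGACG. The table listed 3 windows for Wnt5b and 2 for Wnt11, and the window at the start used in the counts was taken; the other start sites were not searched. Wnt5a and Rspo3 had no entry.

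Wnt5b, a ligand known for signalling without β-catenin, was higher with Fc(mML1)B3 under both diets. Under the HFD, its reads per library were 163 at the lowest, 250 at the median and 343 at the highest in Fc mice, against 235, 311 and 458 in Fc(mML1)B3 mice. The level was 12.1 ± 2.05 CPM (SD, n = 10) with Fc, with a range of 8.06 to 13.8 CPM. Fc(mML1)B3 brought it to 17.0 ± 2.21 CPM (SD, n = 10), with a range of 13.4 to 20.0 CPM. All 10 Fc(mML1)B3 mice lay above the Fc median, and the ranges overlapped only at their edges. The rise was 1.41-fold (log2 fold change 0.50, standard error 0.11, adjusted p = 0.00261 by edgeR's quasi-likelihood test; 2-sided permutation test with 100000 resamples, p = 2e-05). It passed the test in all 20 fits that left out a mouse. It also passed with either of the 2 sets of Fc(mML1)B3 libraries numbered apart in the library names (4 and 6 mice), at log2 0.66 and 0.39 (edgeR adjusted p = 0.00983 and 0.0468). Both fits used the same 10 Fc libraries, which were numbered as a set of their own. Under the HFD no set held both groups, so set and treatment cannot be told apart there. What the numbers in the library names stand for is not stated.

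Under the standard diet, the contrast on which Wnt5b was chosen, Fc mice had 80, 96 and 121 reads (lowest, median and highest) and Fc(mML1)B3 mice 224, 275 and 300. The level was 4.41 ± 0.474 CPM (SD, n = 9) with Fc and 10.7 ± 0.963 CPM (SD, n = 7) with Fc(mML1)B3, which is 2.42-fold higher (log2 1.27, standard error 0.08). The lowest Fc(mML1)B3 mouse, at 9.38 CPM, lay above the highest Fc mouse, at 4.97 CPM. Of all 13570 genes tested, 1.83% were higher with no overlap between the groups. Over the groups, Wnt5b was highest in Fc(mML1)B3 mice on the HFD, followed by Fc mice on the HFD, Fc(mML1)B3 mice on the standard diet and Fc mice on the standard diet. Fc mice on the HFD and Fc(mML1)B3 mice on the standard diet differed by 1.46 CPM, less than the SD of 2.05 CPM among Fc mice on the HFD, and the other neighbours differed by more than their SD.

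**Figure D1:**
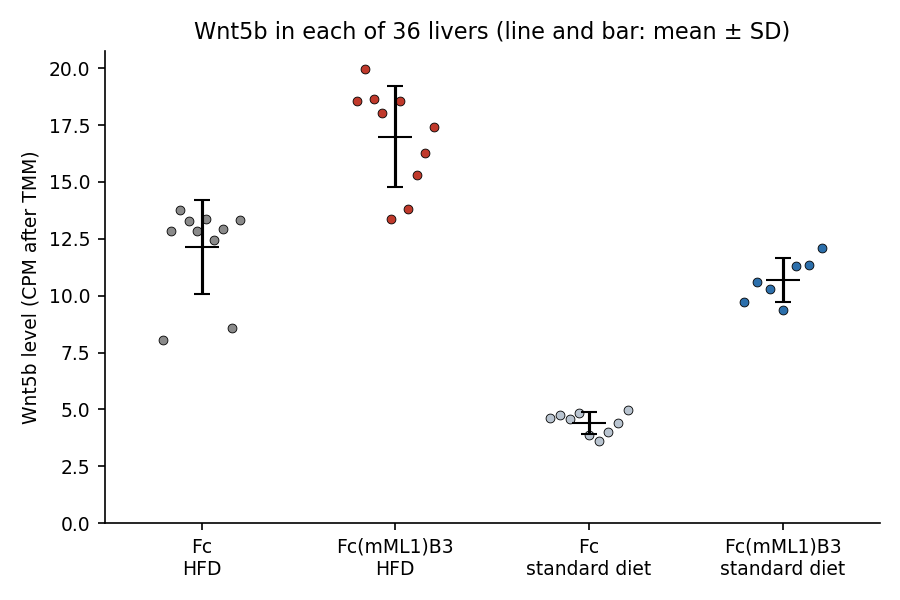
Wnt5b level in CPM (vertical axis) for each of the 36 mice in the 4 groups. Points are mice, and the line and bar are the mean ± SD. The Fc mice on the standard diet, at 3.61 to 4.97 CPM, sit below every mouse of the other groups, and the Fc(mML1)B3 mice on the HFD reach the highest values, up to 20.0 CPM.

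Fbxl14, which encodes a ubiquitin ligase subunit, lies within the span of Wnt5b without sharing an exon. Fbxl14 was at 13.4 ± 2.69 CPM (SD, n = 10) with Fc and 13.3 ± 1.59 CPM (SD, n = 10) with Fc(mML1)B3 under the HFD, a log2 difference of 0.01 (edgeR adjusted p = 0.958). In the standard diet mice it was at 10.95 ± 1.42 CPM (SD, n = 9) and 13.4 ± 0.981 CPM (SD, n = 7) with Fc and Fc(mML1)B3, a rise of log2 0.29 (standard error 0.08, edgeR adjusted p = 0.0163).

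Wnt4, a ligand with roles in kidney and reproductive tract development and in fibrotic tissue, was lower with Fc(mML1)B3 under the HFD. Fc mice had 113, 190 and 415 reads at the lowest, median and highest, and Fc(mML1)B3 mice 38, 114.5 and 306. The level was 11.4 ± 4.03 CPM (SD, n = 10) with Fc and 6.50 ± 4.14 CPM (SD, n = 10) with Fc(mML1)B3. Of the 10 Fc(mML1)B3 mice, 1 lay above the Fc median, at 17.0 CPM, and the ranges overlapped. The log2 fold change was -0.80 (standard error 0.26, edgeR adjusted p = 0.0423; permutation p = 0.0053). The call was close to the threshold: 13 of the 20 fits without 1 mouse lost it, with log2 fold changes from -1.07 to -0.68 over the 20 fits, as did the fit with the second set of 6 Fc(mML1)B3 libraries alone (-0.68, adjusted p = 0.199). Wnt4 under the standard diet was at 4.90 ± 1.99 CPM (SD, n = 9) with Fc and 3.89 ± 1.05 CPM (SD, n = 7) with Fc(mML1)B3, which is log2 -0.35 (standard error 0.22). The effects under the diets differed by 0.46 (standard error 0.38, edgeR adjusted p = 0.544).

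Under the HFD, 6 of the 8 members passed the filter on low counts and 2 of these passed the test, against 14.8% of all 13299 genes tested (8.14% higher and 6.68% lower). Without Wnt5b, which was chosen as a gene that rose with Fc(mML1)B3 in the other mice, this is 1 of 5, namely Wnt4. Under the standard diet, 7 passed the filter and 1, Wnt5b, passed the test, against 16.1% of 13570 genes. Since that contrast was used to choose Wnt5b, nothing is read from the latter count.

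Among the ligands known for signalling without β-catenin, Wnt5a had 32, 74.5 and 202 reads in Fc mice and 38, 66 and 202 in Fc(mML1)B3 mice under the HFD. The mice were widely spread, at 3.99 ± 1.71 CPM (SD, n = 10) with Fc against 4.13 ± 1.91 CPM (SD, n = 10) with Fc(mML1)B3, and the log2 fold change was 0.07 (standard error 0.26, edgeR adjusted p = 0.886). Wnt5a under the standard diet was at 2.87 ± 0.787 CPM (SD, n = 9) with Fc and 2.55 ± 0.662 CPM (SD, n = 7) with Fc(mML1)B3 (log2 -0.18, standard error 0.18). Wnt11 was barely detected, with 0 to 8 reads per library and 0 reads in 2, 3, 5 and 2 mice of the groups in the order HFD Fc, HFD Fc(mML1)B3, standard diet Fc and standard diet Fc(mML1)B3. It did not pass the filter in any comparison. With no filter, its log2 fold change with Fc(mML1)B3 was -0.02 (standard error 0.65) under the HFD and 1.02 (standard error 0.78) under the standard diet, and in Fc mice it was lower under the standard diet than under the HFD by a log2 difference of -1.92 (standard error 0.74, edgeR adjusted p = 0.0408 in the unfiltered fit).

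Of the ligands known to come from central vein and sinusoidal endothelium, Wnt2 had 23, 57 and 86 reads with Fc and 37, 67 and 94 with Fc(mML1)B3 under the HFD. The level was 2.65 ± 0.562 CPM (SD, n = 10) against 3.55 ± 0.925 CPM (SD, n = 10), and 8 of the 10 Fc(mML1)B3 mice lay above the Fc median. This difference (log2 0.43, standard error 0.17) did not pass over all genes (edgeR adjusted p = 0.0911, permutation p = 0.0293). It stayed uncalled in 19 of the 20 fits without 1 mouse, and was called only without Fc(mML1)B3 mouse 8 (log2 0.51, edgeR adjusted p = 0.0295). Wnt2 under the standard diet was at 2.87 ± 0.516 CPM (SD, n = 9) with Fc and 2.53 ± 0.722 CPM (SD, n = 7) with Fc(mML1)B3, at log2 -0.18 (standard error 0.17). The difference between these effects, -0.59 (standard error 0.24), did not pass the test (edgeR adjusted p = 0.135). Wnt9b was low throughout, at 6 to 70 reads, with log2 fold changes of -0.06 (standard error 0.28, edgeR adjusted p = 0.904) under the HFD and -0.01 (standard error 0.25) under the standard diet. Its Fc mice on the HFD ranged from 0.296 to 3.86 CPM, the widest spread among its groups.

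Rspo3, the R-spondin of the central vein, had 144, 248.5 and 398 reads with Fc and 112, 205.5 and 294 with Fc(mML1)B3 under the HFD. Its level averaged 11.9 ± 2.63 CPM (SD, n = 10) against 10.0 ± 2.46 CPM (SD, n = 10), and the difference of log2 -0.23 (standard error 0.14) did not pass the test (edgeR adjusted p = 0.26). Rspo3 under the standard diet was at 7.97 ± 0.662 CPM (SD, n = 9) with Fc and 7.48 ± 1.21 CPM (SD, n = 7) with Fc(mML1)B3 (log2 -0.09, standard error 0.09). Rspo1 had 2 to 44 reads and did not pass the filter under the HFD. With no filter, its log2 fold change was 0.19 (standard error 0.43) there, and it was -0.27 (standard error 0.43) under the standard diet.

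**Figure D2:**
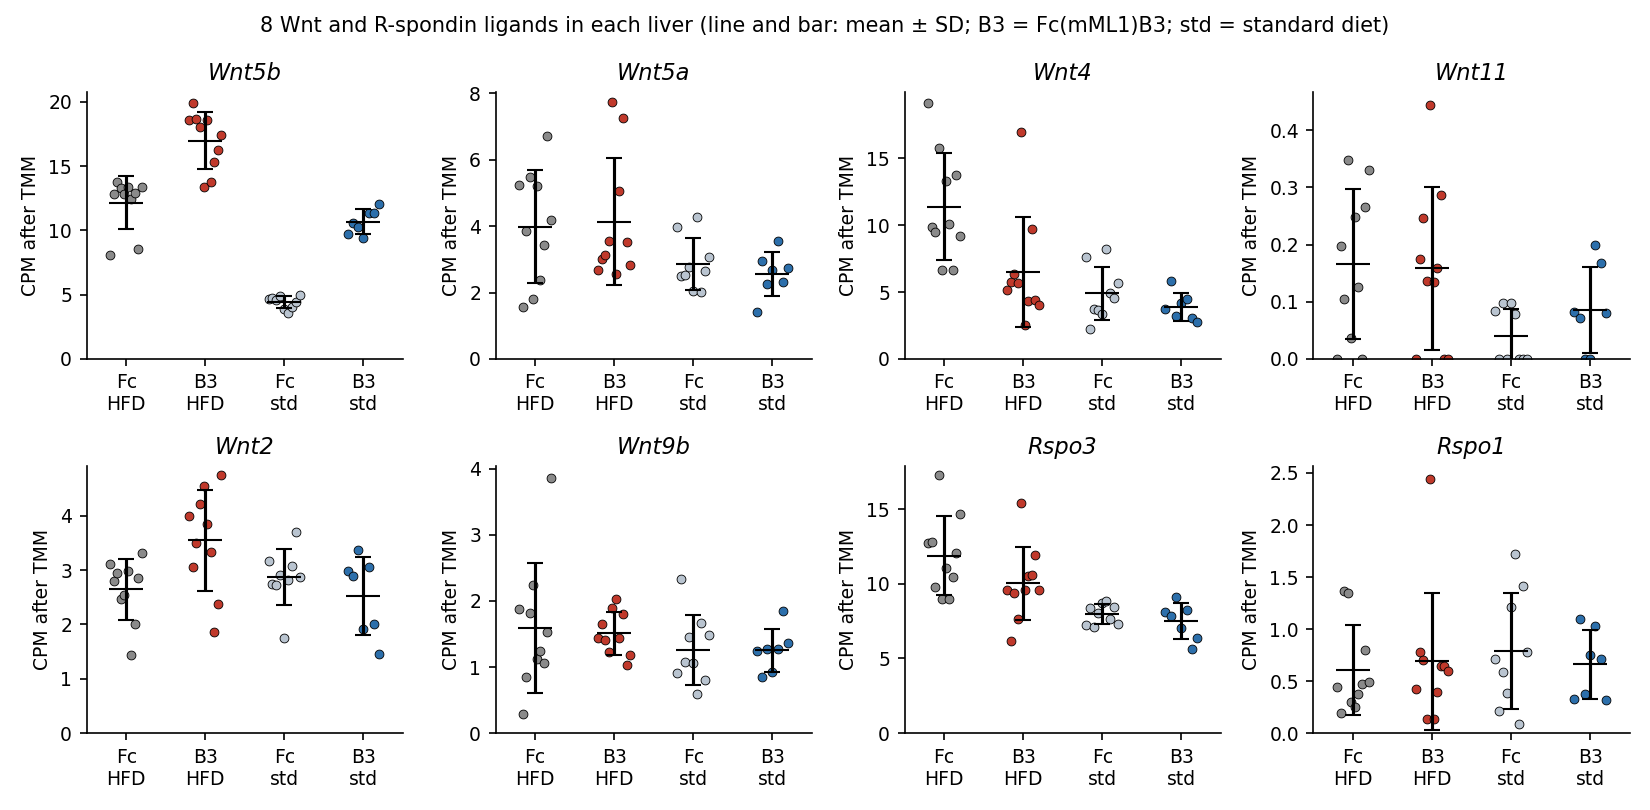
Level in CPM (vertical axes, each with its own scale) of the 8 ligands in each mouse. Points are mice and the line and bar are the mean ± SD, with Fc(mML1)B3 shortened to B3 and the standard diet to std. Wnt5b is the only panel in which the standard diet groups do not overlap, and in the Wnt4 panel 1 Fc(mML1)B3 mouse on the HFD, at 17.0 CPM, stands above the other 9 of its group.

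**Figure D3:**
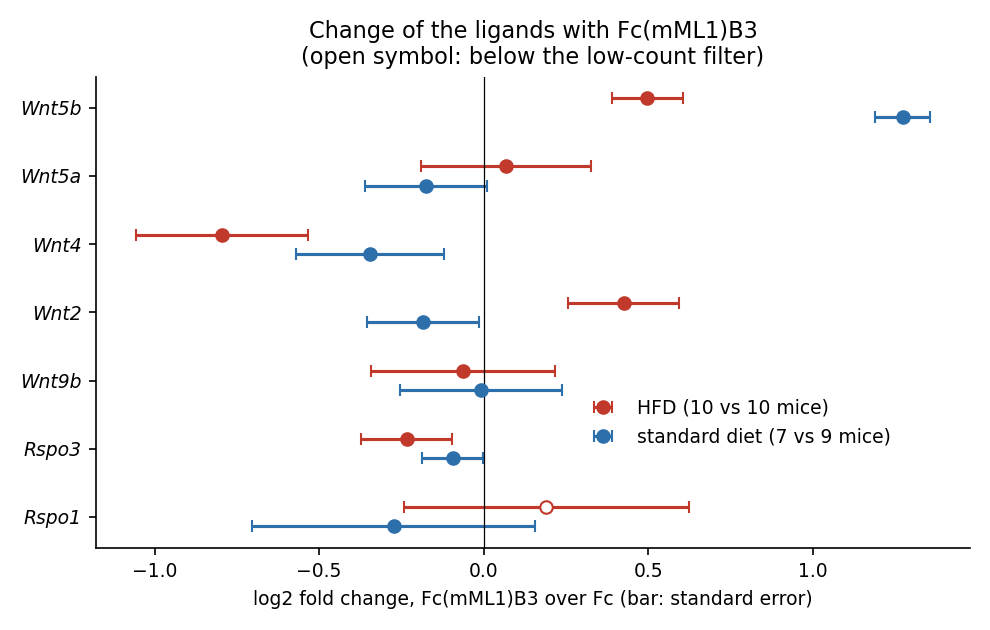
Log2 fold change of Fc(mML1)B3 over Fc (horizontal axis) with its standard error for 7 ligands under the HFD (red) and the standard diet (blue), with an open symbol for Rspo1 under the HFD, where it was below the low-count filter. Wnt5b lies right of 0 under both diets, at 0.50 and 1.27, and Wnt4 left of 0, at -0.80 and -0.35.

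Per kilobase of exon (RPKM, from the scaled CPM), Rspo3 and Wnt5b were the most abundant of the 8. In Fc mice Rspo3 came first, with 4.96 ± 1.10 RPKM (SD, n = 10) against 4.58 ± 0.773 RPKM (SD, n = 10) for Wnt5b under the HFD, where 5 of 10 mice had more Rspo3 than Wnt5b. In standard diet mice Rspo3 was at 3.33 ± 0.276 RPKM (SD, n = 9) and Wnt5b at 1.66 ± 0.179 RPKM (SD, n = 9), with no overlap between the genes. In Fc(mML1)B3 mice Wnt5b came first, with 6.403 ± 0.834 RPKM (SD, n = 10) against 4.19 ± 1.03 RPKM (SD, n = 10) for Rspo3 under the HFD. On the standard diet it had 4.02 ± 0.363 RPKM (SD, n = 7) against 3.12 ± 0.503 RPKM (SD, n = 7), and all 7 mice had more Wnt5b than Rspo3. Wnt4, Wnt2 and Wnt5a followed at 0.583 to 2.98 RPKM in the group means. Wnt4 was above Wnt2 in all 10 Fc mice on the HFD without overlap of their ranges, while in the other groups the ranges of Wnt4 and Wnt2 overlapped. Wnt9b and Rspo1, at 0.277 to 0.431 RPKM, could not be ordered, and Wnt11 was last in every group.

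Counting all 19 Wnt genes in RPKM, Wnt5b made up 40.3 ± 9.35% of the Wnt transcripts (SD, n = 10) in Fc mice and 55.1 ± 9.62% (SD, n = 10) in Fc(mML1)B3 mice under the HFD. Its share under the standard diet was 27.4 ± 4.01% (SD, n = 9) and 51.8 ± 5.14% (SD, n = 7). The other Wnt genes together were at 7.02 ± 2.02 RPKM (SD, n = 10) and 5.42 ± 2.07 RPKM (SD, n = 10) under the HFD and at 4.47 ± 0.736 RPKM (SD, n = 9) and 3.79 ± 0.684 RPKM (SD, n = 7) under the standard diet. These sums and shares include Wnt10a, at 1.67 ± 3.94 CPM (SD, n = 10) with Fc and 0.231 ± 0.236 CPM (SD, n = 10) with Fc(mML1)B3 under the HFD. Its Fc mean rests largely on mouse 7, with 202 reads (12.6 CPM) against a group median of 4 reads. Sums and shares without that library were not computed. Of the 15 Wnt and R-spondin genes outside the list, 4 (Wnt1, Wnt3a, Wnt8a and Rspo4) had no read in any library and 10, these included, had a median of 0 reads. Only Wnt2b, Wnt7b and Wnt9a passed the filter over all 36 libraries. Wnt7b was the only one called with Fc(mML1)B3, under the standard diet, and it was below the filter and not tested under the HFD. Fc mice had 4 to 24 reads (0.552 ± 0.217 CPM, SD, n = 9) and Fc(mML1)B3 mice 4 to 10 (0.283 ± 0.102 CPM, SD, n = 7), at log2 -0.97 (standard error 0.30, edgeR adjusted p = 0.033), and it passed the filter in 9 fits without 1 mouse, 3 of which lost the call. Wnt2b, at 4 to 75 reads, was higher under the standard diet than under the HFD in Fc mice (log2 1.18, edgeR adjusted p = 0.000524) and in Fc(mML1)B3 mice (log2 1.02, adjusted p = 0.00543).

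Between the diets, the members that passed the test were all lower under the standard diet. These contrasts use the same mice as those above. Wnt5b is left out of the counts, since its standard diet values chose it. In Fc mice, 2 of the other 6 members tested were called, both lower, against 47.9% of 14105 genes called and 24.6% called lower. Wnt4 fell by 1.21 on the log2 scale (standard error 0.26, edgeR adjusted p = 0.000207) and Rspo3 fell by 0.58 (standard error 0.12, adjusted p = 0.00023). The Rspo3 ranges did not overlap, with 8.99 CPM as the lowest Fc mouse on the HFD and 8.86 CPM as the highest on the standard diet, and 1.95% of genes were lower without overlap. Wnt5b, given without a test, was lower by log2 1.46 (a difference of -1.46, standard error 0.10), also without overlap. In Fc(mML1)B3 mice, 4 of the 6 were called, all lower, against 38.5% of genes called and 17.9% called lower. These were Rspo3 (log2 -0.42, edgeR adjusted p = 0.0114), Wnt5a (-0.70, adjusted p = 0.0305), Wnt2 (-0.48, adjusted p = 0.0315) and Wnt4 (-0.75, adjusted p = 0.0341), and Wnt5b, given without a test, was at -0.67. With the replicate number as a block in the fit, fewer members than these 4 were called. The median log2 difference over all genes tested was -0.05 in Fc mice and -0.02 in Fc(mML1)B3 mice.

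Genes of other liver cells moved with some of these differences. The summed level of 7 stellate cell markers (Lrat, Reln, Des, Pdgfrb, Acta2, Col1a1 and Hgf) had a median of 300.5 CPM in Fc mice and 236.5 CPM in Fc(mML1)B3 mice under the HFD, with ranges of 210.3 to 409.6 and 184.6 to 424.9 CPM. Under the standard diet the medians were 227.9 and 193.7 CPM, with ranges of 181.9 to 274.2 and 179.1 to 214.4 CPM. None of the 7 was called with Fc(mML1)B3 under the HFD, and Pdgfrb (log2 -0.51, edgeR adjusted p = 0.0073) and Des (-0.36, adjusted p = 0.0239) were called lower under the standard diet. The 5 cholangiocyte markers (Krt19, Krt7, Epcam, Sox9 and Cldn4) summed to medians of 67.9 and 51.3 CPM under the HFD and 41.5 and 31.8 CPM under the standard diet, and Sox9 was called lower under the standard diet (log2 -0.50, edgeR adjusted p = 0.0402). The 7 endothelial markers held medians of 242.1 and 258.9 CPM under the HFD and 236.0 and 227.0 CPM under the standard diet, with none called. Of the hepatocyte markers Hnf4a was called higher under the HFD (log2 0.37, edgeR adjusted p = 0.0208). Krt18, on a list of 4 mesothelial markers, was called lower under the HFD (-0.32, edgeR adjusted p = 0.026) and the standard diet (-0.28, adjusted p = 0.00235). Its group means were 217.5 to 273.1 CPM, against 1.25 to 3.89 CPM for Msln, Upk3b and Wt1 of that list. None of Msln, Upk3b and Wt1 was called with Fc(mML1)B3 under either diet, so the Krt18 calls are not read as a mesothelial change. Between the diets, 4 stellate markers were called lower under the standard diet in Fc mice, among them Acta2 (log2 -1.37, edgeR adjusted p = 0.000655) and Col1a1 (-1.18, adjusted p = 1.64e-05), and Hgf was called higher (0.85, adjusted p = 0.000116). Epcam and Cldn4 of the cholangiocyte list and Cd68 and Marco of 5 macrophage markers were also called lower there, as was the mesothelial marker Wt1 (-0.87), while Cyp3a11 (1.78) and Hnf4a (0.61) of the hepatocyte list and the endothelial Kdr (0.23) were called higher. In Fc(mML1)B3 mice, Acta2 (-2.11), Col1a1 (-1.08) and Pdgfrb (-0.55) were called lower and Hgf higher (0.78), and Krt19 (-1.53), Sox9 (-0.86), Cd68 (-0.66) and Wt1 (-1.22) were called lower and Cyp3a11 (1.60) and Kdr (0.30) higher. The part of these markers in the lower members under the standard diet was not tested. All markers of the stellate, cholangiocyte and endothelial lists were detected in every group.

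From mouse to mouse within the groups, Wnt4 moved with the stellate sum and with other marker sums. Over the 36 mice, with each group mean subtracted on the log2 scale, Pearson's r was 0.739 for Wnt4, and it was 0.662, 0.826, 0.814 and 0.840 in the single groups. Wnt5a behaved likewise, at r = 0.644 with the stellate sum and 0.679 with Wnt4. Wnt4 was tied about as closely to the sums of other lists, at r = -0.709 with hepatocyte, -0.644 with endothelial and 0.640 with cholangiocyte markers. Wnt5b ran the other way, at r = -0.517 with the stellate sum, but its single-group values were -0.690 and -0.479 under the HFD and only -0.164 and -0.062 under the standard diet. With the hepatocyte sum Wnt5b was at r = 0.509, from 0.282 to 0.804 in the single groups. Its 2 lowest Fc mice on the HFD, at 8.06 and 8.58 CPM, had stellate sums of 409.6 and 375.7 CPM, while Fc mouse 4, with a sum of 376.2 CPM, had Wnt5b at 13.3 CPM. Rspo3 was at r = -0.700 with the hepatocyte sum, with -0.849, -0.749 and -0.735 in 3 groups and 0.167 in Fc mice on the standard diet. These are descriptions over mice that share their libraries' scaling. The part of stellate cell content in the lower Wnt4 with Fc(mML1)B3 was not tested.

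**Figure D4:**
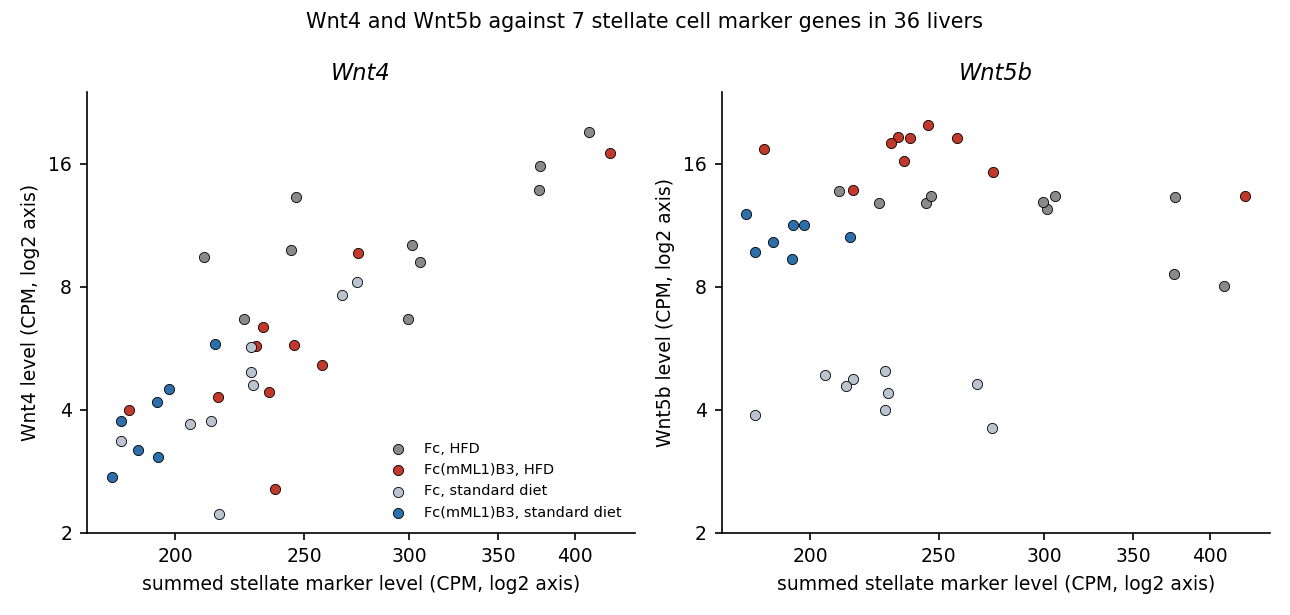
Wnt4 (left) and Wnt5b (right) level in CPM on a log2 axis against the summed CPM of 7 stellate cell markers on a log2 axis, with 1 point per mouse coloured by group. Wnt4 climbs with the stellate sum within each group, and the Fc(mML1)B3 mouse on the HFD at 17.0 CPM is also the one with the highest sum, 424.9 CPM. In the standard diet mice, the stellate sums are 179.1 to 214.4 CPM with Fc(mML1)B3 and 181.9 to 274.2 CPM with Fc, so they overlap over only part of the range.

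Among the 98 other genes of the Wnt pathway in the lists used, 68 passed the filter under the HFD and 6 of them (8.82%) were called, 5 higher and 1 lower. Under the standard diet 12 of 68 (17.6%) were called, 7 higher and 5 lower. In the edgeR test of a difference between the effects under the diets 3 of 71 (4.23%) were called, against 9.06% of 14105 genes. The first 2 shares stand beside the 14.8% and 16.1% of all genes, and with the first set of 4 Fc(mML1)B3 libraries alone 1 gene was called under the HFD. Without Fc(mML1)B3 mouse 5, 11 genes were called under the HFD. The 12 under the standard diet fell to 4 with the libraries of the 1 set that holds both groups, and to 5 to 7 without any 1 of Fc mice 1, 3, 5, 6 and 9 or Fc(mML1)B3 mice 5 and 6. The median log2 fold change over the 68 genes was -0.01 on the HFD and -0.04 on the standard diet, against -0.01 for all genes in both. The genes that process and release Wnt proteins, Porcn and Wls, were not called under either diet, and Wls was at log2 -0.33 (edgeR adjusted p = 0.166) under the HFD and -0.25 (adjusted p = 0.135) under the standard diet.

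The receptor list held 17 tested genes, among them the ubiquitin ligases Znrf3 and Rnf43. Of these 17, 2 were called higher under the HFD, and 1 was called higher and 2 lower under the standard diet, beside 14.8% and 16.1% of all genes. The β-catenin co-receptor Lrp5 moved in opposite directions. Under the HFD it was at 34.2, 48.6 and 76.0 CPM (lowest, median and highest) with Fc and 50.5, 66.5 and 92.9 CPM with Fc(mML1)B3, and it rose by log2 0.48 (standard error 0.14, edgeR adjusted p = 0.0248). Under the standard diet it was at 65.9, 78.7 and 83.1 CPM with Fc and 50.1, 57.1 and 61.1 CPM with Fc(mML1)B3, without overlap, and it fell by 0.48 on the log2 scale (standard error 0.06, edgeR adjusted p = 1.3e-05). The difference between these effects was -0.93 (standard error 0.18, edgeR adjusted p = 0.000366). The rise under the HFD was lost in 2 of the 20 fits without 1 mouse, namely without Fc(mML1)B3 mouse 6 or 7, and with the first set of 4 Fc(mML1)B3 libraries alone (log2 0.21, adjusted p = 0.431), while the fall under the standard diet was called in all 16 such fits. The other LDL-related co-receptor, Lrp6, was not called with Fc(mML1)B3 under either diet.

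Fzd4, a Frizzled receptor best known in endothelium, rose under the standard diet from 11.9, 15.1 and 19.2 CPM with Fc to 19.0, 22.8 and 27.8 CPM with Fc(mML1)B3 (lowest, median and highest). All 7 Fc(mML1)B3 mice lay above the Fc median, at log2 0.55 (standard error 0.09, edgeR adjusted p = 0.000397). Under the HFD Fzd4 was at 3.69, 8.19 and 9.71 CPM with Fc and 4.41, 6.20 and 6.92 CPM with Fc(mML1)B3, at log2 -0.28 (standard error 0.16, edgeR adjusted p = 0.235), and the effects differed by 0.85 (standard error 0.20, edgeR adjusted p = 0.00319). Rnf43, the ubiquitin ligase that R-spondins counter and itself a β-catenin target, was not called under either diet, at log2 -0.40 (edgeR adjusted p = 0.051) under the HFD and 0.23 (adjusted p = 0.165) under the standard diet, but its effects differed by 0.64 (standard error 0.19, edgeR adjusted p = 0.0229). Fzd7 rose under the HFD (log2 0.39, standard error 0.12, edgeR adjusted p = 0.0273), a call lost without Fc(mML1)B3 mouse 7. Lgr5, an R-spondin receptor and β-catenin target, was lower under the standard diet (log2 -0.40, edgeR adjusted p = 0.0465), a call that 10 of 16 fits without 1 mouse lost.

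**Figure D5:**
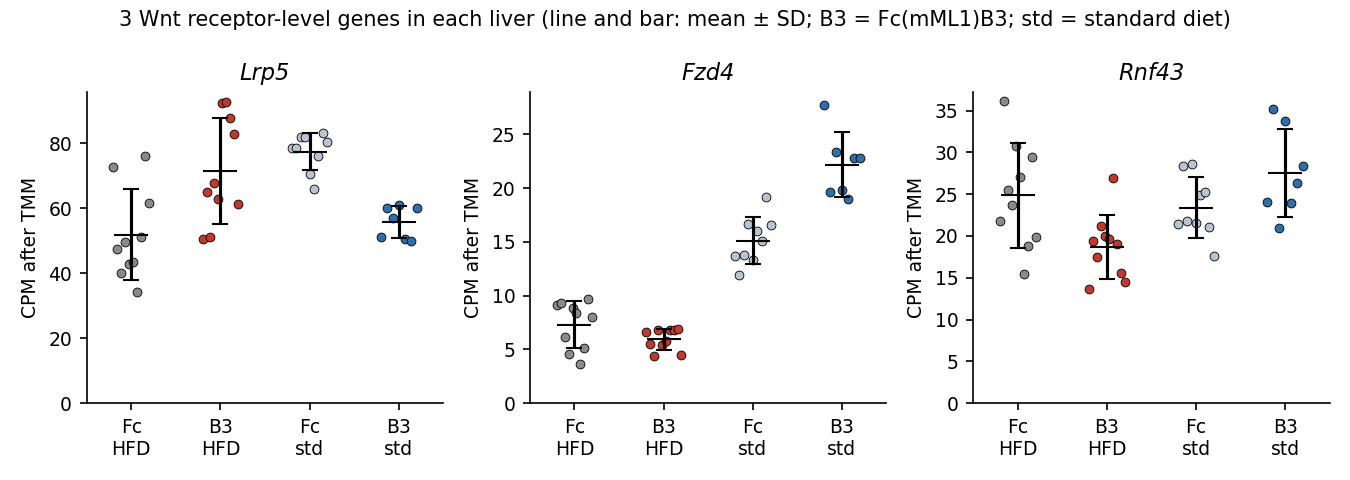
Level in CPM (vertical axes) of the receptor-level genes Lrp5, Fzd4 and Rnf43 in each mouse, with the mean ± SD as line and bar (B3 is Fc(mML1)B3, std the standard diet). Lrp5 is higher with Fc(mML1)B3 under the HFD and lower under the standard diet, and Fzd4 is higher in every standard diet mouse than in any HFD mouse.

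In the branch without β-catenin, 2 of 15 genes were called under the HFD and 1 of 15 under the standard diet, beside the same 14.8% and 16.1% of all genes. Celsr1, a cadherin of planar cell polarity, averaged 8.28 ± 3.22 CPM (SD, n = 10) in Fc mice on the HFD and rose to 15.3 ± 6.24 CPM (SD, n = 10), where all 10 Fc(mML1)B3 mice lay above the Fc median (log2 0.91, standard error 0.23, edgeR adjusted p = 0.0106). Its partner Vangl1 fell by 0.37 on the log2 scale (standard error 0.11, edgeR adjusted p = 0.0262), a call that 5 of 20 fits without 1 mouse lost. Under the standard diet Daam1, a formin that links Dishevelled to actin, was higher (log2 0.37, standard error 0.09, edgeR adjusted p = 0.00636). Dvl1, the Dishevelled protein that serves both branches, rose slightly on the HFD (log2 0.22, edgeR adjusted p = 0.0214) and on the standard diet (log2 0.14, adjusted p = 0.0248), with the latter call lost in 4 of 16 fits without 1 mouse, and was the only gene called among 15 of the β-catenin branch in each. None of the 6 inhibitors tested by edgeR (Dkk3, Kremen1, Sfrp1, Sfrp5, Frzb and Notum, secreted except for the membrane protein Kremen1) was called under the HFD, where 3 (Kremen1, Sfrp5 and Frzb) had an unadjusted p below 0.05. Of 5 tested under the standard diet, Sfrp1 (log2 -0.79, edgeR adjusted p = 0.0395) and Frzb (log2 -0.35, adjusted p = 0.0497) were called lower, and 10 and 13 of the 16 fits without 1 mouse lost these calls.

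Among 10 pericentral hepatocyte genes, which respond to Wnt2, Wnt9b and Rspo3, Rhbg was the only one called under the HFD (log2 0.44, edgeR adjusted p = 0.0411, lost in 11 of 20 fits without 1 mouse), and Rhbg (log2 0.44, adjusted p = 0.000924), Cyp2e1 (0.25, adjusted p = 0.0176), Cyp1a2 (0.34, adjusted p = 0.0456) and Lect2 (0.24, adjusted p = 0.0478) were called higher under the standard diet, while Lgr5, also on this list, was the 1 called lower. The shares over all genes were 14.8% on the HFD and 16.1% on the standard diet. The Cyp1a2 and Lect2 calls were lost in 10 and 11 of 16 such fits.

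The genes whose levels most resembled Wnt5b were found by Pearson's r of log2(CPM + 0.5) over the 36 libraries among 14104 other genes, as a description. As measured, these included Coa6, a cytochrome c oxidase assembly factor (r = 0.907), Rbm25, a splicing protein (0.898), Vac14, a scaffold of phosphoinositide synthesis (0.892) and the tetraspanin Tspan4 (0.885). These values include the differences between the 4 groups. Coa6 averaged 28.6 CPM with Fc against 33.4 CPM with Fc(mML1)B3 on the HFD and 18.8 against 27.4 CPM on the standard diet, and within the groups its r with Wnt5b ran from 0.267 to 0.830. With the group means subtracted, the most alike were Coq9, which acts in coenzyme Q synthesis (r = 0.773), the mitochondrial reductase gene Mecr (0.761), Coa6 (0.759), the histone gene H2afj (0.724) and the complex I subunit gene Ndufs8 (0.711). For Coq9, r was from 0.649 to 0.944 in the single groups, and for H2afj from 0.367 to 0.850. In Fc mice on the standard diet r was much lower or negative for the others, at 0.126 for Mecr, 0.267 for Coa6, -0.216 for Ndufs8, 0.165 for Vac14, -0.224 for Rbm25 and -0.616 for Tspan4. With Fc(mML1)B3, Coq9 itself was at log2 -0.05 on the HFD and 0.05 on the standard diet.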

How the data were processed

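Liver RNA of 36 mice was measured, 1 library a mouse, and groups and mouse numbers came from the sample titles. The deposited values are counts per gene, which the authors made with fastp, Bowtie2 2.4.5 (removal of ribosomal RNA), STAR 2.7.10a against mm10 and featureCounts 2.0.3. Each end of a read pair was counted and strand was ignored, so a gene with 2 reads may rest on 1 fragment. No pair of libraries of a group was a duplicate (lowest chi-square per degree of freedom 6.305 over 147 pairs). Depth sets the precision of low genes: counting error weighs most on Wnt11, Rspo1 and Wnt9b.

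Genes were kept with filterByExpr and tested by quasi-likelihood in edgeR 4.0.16 (R 4.3.3) after TMM scaling, with Benjamini-Hochberg adjustment over all genes tested and a call at an adjusted p below 0.05, with no limit on the fold. Each diet was fitted by itself, and differences between diets came from 1 fit of 4 group means over 36 libraries. A standard error is the log2 fold change over the square root of F. Members were also compared under the HFD with 2-sided permutation tests. The fits were tested on simulated data. The members and lists were chosen with earlier results of these data known. The named genes are the members, up to 8 called pathway genes with the smallest p in each of the 2 treatment contrasts (and the 3 called in the test between diets, chosen after their values were seen), the 5 most like Wnt5b by each of 2 measures (1 of these is not reported here), and markers of reported lists. Fbxl14, Wnt2b, Wls, Lrp6, Wnt10a and called pathway genes past that limit were picked once their values were known. Libraries were also split into sets by the S numbers in their names, and whether these mark a sequencing run or a sheet order is not stated. The Fc(mML1)B3 libraries of the HFD formed 2 sets and the Fc libraries 1, and 4 of 9 Fc libraries of the standard diet were numbered in 1 set with the 7 Fc(mML1)B3 libraries. Alternatives were DESeq2 1.42.0, RLE size factors, no filter, halved counts, a replicate block, single sets, the study's thresholds and each library left out.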

Additional observations from a re-analysis of the deposited data

Results flagged for a closer look

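In 7 of 60 groups of values checked (15 genes in 4 groups of mice), 1 mouse stood apart from the rest by Dixon's test. This count cannot be set against chance, since the genes share mice and Wnt10a was picked once its values were known. Fc(mML1)B3 mouse 5 of the HFD was the highest of its group in 4 of these, with Wnt4 at 17.0 CPM (306 reads; next 9.69 CPM), Rspo1 at 2.44 CPM (44 reads; next 0.784 CPM), Rhbg at 47.2 CPM (next 38.2 CPM) and Wnt10a at 0.833 CPM (15 reads; next 0.359 CPM). The same mouse had the highest sums of stellate and cholangiocyte markers of its group, 424.9 and 171.1 CPM, and the lowest hepatocyte sum, 69390 CPM. Without it, Wnt4 under the HFD was at log2 -1.07 (edgeR adjusted p = 0.00128) and Wnt5b at 0.53 (adjusted p = 0.00113), and the number of other pathway genes called rose from 6 to 11. Wnt10a, a ligand with a median of 2 reads over all libraries, had 202 reads (12.6 CPM) in Fc mouse 7 of the HFD, against 48 reads (2.83 CPM) in the next mouse of that group. In Fc mice on the standard diet, the lowest Wnt2 (mouse 5, 1.75 CPM, next 2.73 CPM) and the lowest Coa6 (mouse 7, 16.1 CPM, next 18.1 CPM) also stood apart.

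For 3 of 71 other pathway genes (4.23%, against 9.06% of 14105 genes), the change with Fc(mML1)B3 was not the same on both diets by the test of the difference itself. The difference, standard diet minus HFD on the log2 scale, was -0.93 for Lrp5, 0.85 for Fzd4 and 0.64 for Rnf43.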

How the results depend on the processing

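The Wnt5b rise under the HFD was called under each alternative except the study's thresholds. The study's own thresholds, as its figure legends give them, add a limit on the fold. They ask for an adjusted p below 0.1 and a fold above 2 under the HFD, and below 0.05 and above 1.5 under the standard diet. The study's main text gives 0.1 and 2 for the standard diet as well, which was not used. With the legend thresholds on the edgeR fits, 178 genes were called under the HFD, with 0 members and 1 other pathway gene. Under the standard diet 320 genes were called, with 2 other pathway genes. With single sets (by S number) of Fc(mML1)B3 libraries under the HFD, S1_S4 (4 mice) gave 705 genes and 1 other pathway gene and turned Wnt5a to -0.34, and S1_S6 (6 mice) gave 1 member. Set S131_S143 alone gave 942 genes and 4 other pathway genes under the standard diet. The single sets hold fewer mice. The study's thresholds add the fold limit, while under the HFD they allow a higher adjusted p than the main fit. Causes of these changes were not tested.

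Same-numbered mice did not deviate together, since 2 of 10 pairs under the HFD and 0 of 7 under the standard diet correlated above 0.1, so the numbers do not pair them. With the replicate block, 1294 genes, 1 member (Wnt5b) and 2 other pathway genes were called under the HFD, with Wnt4 at -0.91 (edgeR adjusted p = 0.0711). Under the standard diet 1296 genes and 6 other pathway genes were called. Between the diets in Fc(mML1)B3 mice, 3 members were called with the block against 5 in the main fit. Both counts include Wnt5b, whose standard diet values chose it, so nothing is read from its call. The block also reversed Wnt9b under the HFD (0.11), Rspo1 between the diets in Fc(mML1)B3 mice (0.043) and the Wnt9b difference between effects (-0.077), none of them called.

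Leaving out 1 mouse at a time gave 1555 to 2848 genes called under the HFD (2848 without Fc(mML1)B3 mouse 5), 1 to 3 members and 4 to 11 other pathway genes, and 1730 to 2230 genes and 5 to 12 other pathway genes under the standard diet. Wnt5a under the HFD ranged from -0.071 to 0.186 and Wnt9b from -0.183 to 0.182. Depth limits Wnt11, Rspo1, Wnt9b and Wnt7b most.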
